A study of Mus musculus with 16 samples.

Results

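Neural epithelium of the lateral prominence of the E10.5 mouse embryo was set against a second E10.5 neural epithelium, titled central, by RNA-seq. These are 2 of the 16 libraries of a survey of early head and face tissues, 4 of E8.5, 4 of E9.5 and 8 of E10.5, E standing for embryonic day. They were chosen by title. All were total RNA of CD1 embryos, an outbred strain, with no treatment or allele named, and the means of dissection and the number of embryos in a library are not stated in the labels. Each region and stage had 1 library, so no difference below has a replicate error or a p-value, and each is described by size alone.

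The title and the value column of the second library are crossed. It is titled central, but its value column and file carry the abbreviation that the labels give to the dorsal control, and the library titled dorsal control carries the abbreviation of the central one. Samples are named here by their titles, as the library titled central and the library titled dorsal control. Some regional genes are given here beside the titles. Nkx2-1, a homeobox factor of the ventral forebrain, had a level of 1.98 in lateral prominence, 3.91 in the library titled central and 101 in the library titled dorsal control, whereas Rspo1, Rspo3, Wnt8b and Neurog2, genes of the dorsal forebrain and its midline, had their highest value of the 16 libraries in the library titled central. Rspo3, Wnt8b and Neurog2 were given as markers of the library titled central, so they are no independent evidence on its title. Zic1, a midline factor, stood the other way, at 14.3 in that library and 61.3 in the library titled dorsal control. Over 19 genes of cortical hem and dorsal midline, mean log2 levels were 1.64 and 1.27 in these 2 libraries. Over 25 dorsal telencephalon genes they were 2.81 and 1.48, and over 23 ventral telencephalon genes 0.92 and 2.17. By these means and the genes named here, Zic1 aside, dorsal genes were higher and ventral genes lower in the library titled central. The genes do not settle the crossed names, and no position in the brain is read from either title. With the library titled dorsal control as the comparison instead, 1178 genes could be counted by the rule given below. Of these, 170 were higher and 465 lower in lateral prominence.

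At this stage the front of the neural tube forms the telencephalon. In the mouse the cortical hem, next to the dorsal midline, secretes Wnt and BMP proteins and R-spondins. These pattern the adjoining dorsal wall, where Emx2 and Dmrt genes are active. The ventral wall carries Dlx, Gsx and Nkx2-1 genes and responds to sonic hedgehog. Proneural factors such as Neurog2 in the dorsal wall start the making of neurons.

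The deposited values are ratios of each gene to its own median over the 16 libraries, so they compare libraries for 1 gene and do not compare genes. A level below sets a value over the smallest one that the same gene has in any of the 16 libraries, and a level of 1 is that lowest value. Where several libraries share the lowest value, it is a floor, and a fold against it is given as "at least". A gene was counted when the libraries differed by 2-fold or more after a log2 shift of 0.10 between them was removed, and when the higher library had a level of at least 5. Of 15876 genes, 749 reached that level in at least 1 of the 2 libraries. Of these 122 were higher in lateral prominence (16.3% of the 749) and 144 lower (19.2%), together 35.5%. In 24 of the higher and 34 of the lower genes the library with less RNA of that gene stood at a lowest value shared with other libraries, and in 7 and 8 it alone held the lowest value, so that a floor cannot be told from a measured value. For each gene list below, the number of members that reached the level of 5 in either library is given beside the number measured, since only those could be counted, and their counts stand beside the 16.3% and 19.2% of all such genes. A gene may reach that level through 1 library alone, so these counts describe the lists and support nothing. List counts against the library titled dorsal control are given over the measured members, and how many of these could be counted there is not given. That comparison had 170 higher and 465 lower of 1178 genes that could be counted. The list counts therefore cannot be set as shares beside it or beside the shares above. The median fold was 3.65 among the higher and 3.90 among the lower genes.

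**Figure D1:**
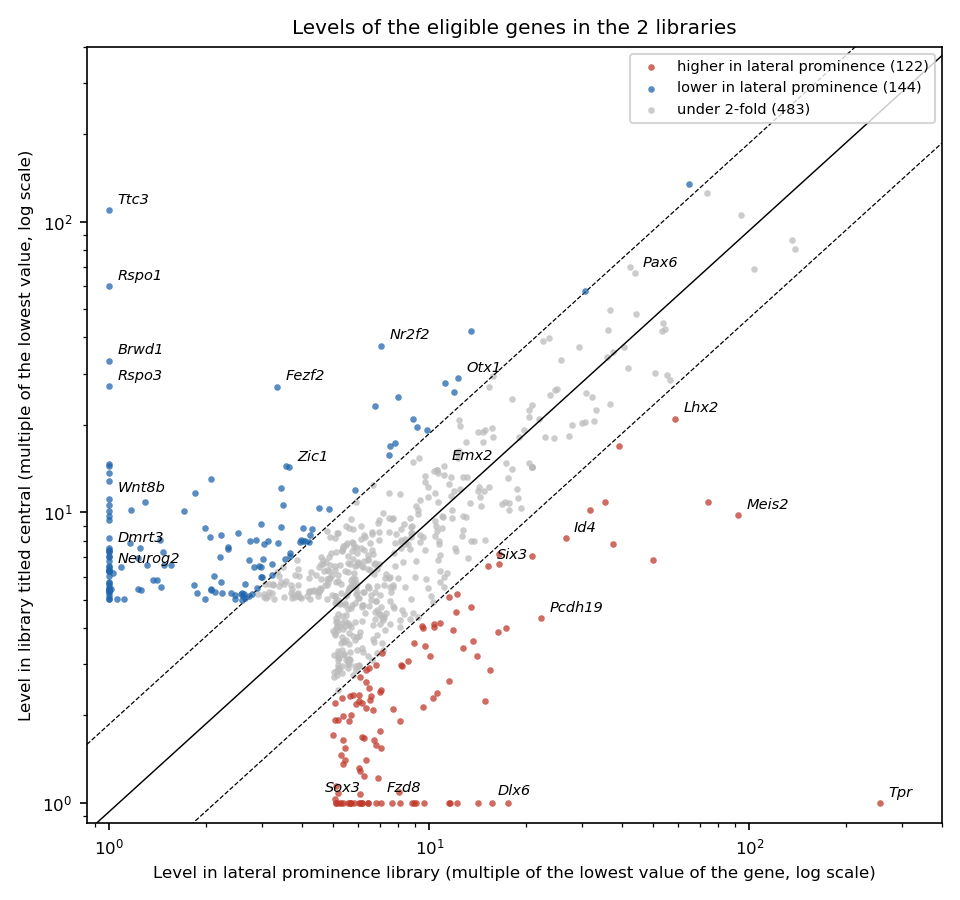
Level of each of the 749 eligible genes in lateral prominence (horizontal, log scale) and in the library titled central (vertical, log scale), as multiples of its lowest value; the solid line is the median gene and the dashed lines are 2-fold. Rspo1, Rspo3 and Wnt8b stand at level 1 in lateral prominence, and Meis2 (92.4 in lateral prominence and 9.78 in the library titled central) stands on the other side.

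Both libraries carried genes of neural epithelium. Sox2, a factor of neural progenitors, had levels of 17.8 in lateral prominence and 10.2 in the library titled central, Nes, an intermediate filament of progenitors, 14.9 and 19.2, and Pax6, an eye and forebrain factor, 43.8 and 66.6. Of 26 cranial mesenchyme markers, 25 were at their lowest value in lateral prominence and 23 in the library titled central. Of 19 surface and olfactory epithelium markers, 18 and 16 were at their lowest value, and of 22 endothelium markers 16 in each. Of 16 erythroid genes, which mark blood, 11 were at their lowest value in each library. The highest level among the 16 was 35.9 in lateral prominence and 34.2 in the library titled central. Mean log2 levels over the 16 were 1.04 and 1.08. Midbrain and hindbrain genes were at their lowest value for 14 of 14 members in lateral prominence and 13 of 14 in the library titled central. Over all 15876 genes, 6655 in lateral prominence and 6777 in the library titled central were at their lowest value. Among the 8788 genes with a shared lowest value, the shares were 72.5% and 72.4%. The endothelium and erythroid counts lie near those shares, so absence of these tissues is not read from them. The library titled dorsal control had 958 genes at a level of 5 or more, against 545 in lateral prominence and 519 in the library titled central.

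Wnt and R-spondin ligands were counted in 1 direction, which the level rule fixed. Their highest level in lateral prominence was 4.09, so a member could reach the level of 5 through the library titled central alone. Rspo1, an R-spondin that strengthens Wnt signals at the cell surface, had a level of 1 in lateral prominence and 60.2 in the library titled central, and was at least 64.5-fold lower in lateral prominence. Rspo3 had a level of 1 in lateral prominence and 27.3 in the library titled central, at least 29.2-fold lower. Rspo2 had a level of 1 in lateral prominence and 5.46 in the library titled central, at least 5.84-fold lower. All 3 were at the floor in lateral prominence. In bulk tissue, fewer cells that make an RNA and less of it in each cell cannot be told apart. Rspo1 also had a level of 21.4 in the library titled dorsal control, where Rspo2 and Rspo3 were at 1. Across the other libraries Rspo1 reached 26.5 in E8.5 mesoderm and 19.6 in the E10.5 lateral nasal prominence.

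Wnt8b, a Wnt ligand of the cortical hem and dorsal forebrain, had a level of 1 in lateral prominence and 11.1 in the library titled central, at least 11.9-fold lower in lateral prominence. It was at its floor in 15 of the 16 libraries. Wnt7b, a Wnt ligand of the cortical wall, had a level of 1 in lateral prominence and 5.75 in the library titled central, at least 6.15-fold lower. Its next value was 3.75, in the E10.5 medial nasal prominence. In all, 5 of 13 measured Wnt and R-spondin genes reached the level of 5, of which 5 were lower and 0 higher, with a median log2 ratio of -1.80 beside -0.10 over all 15876 genes. A median of -0.10 is that of genes at the floor in both libraries. With the library titled dorsal control as the comparison, 1 of the 13 measured was lower and 0 higher. Of the 1178 genes that could be counted there, 465 were lower and 170 higher, which is not a like share. With no member at the level of 5 in lateral prominence, none could be counted as higher in either comparison. Wls, which carries Wnt proteins to the surface, had levels of 1 in lateral prominence and 4.53 in the library titled central, and Wnt5a 1 and 3.25, and neither was counted because both libraries were under the level of 5. Wnt7a stood the other way, at 4.09 in lateral prominence and 1.06 in the library titled central, and was not counted either.

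Receptors, inhibitors and targets of the Wnt pathway were counted in both directions. Apcdd1, a Wnt inhibitor that Wnt signals induce, had levels of 1.47 in lateral prominence and 7.33 in the library titled central, and was 5.33-fold lower in lateral prominence. Tcf7l2, a transcription factor of the pathway, was 2.18-fold lower, at 2.47 and 5.04, and the secreted Wnt inhibitor Sfrp2 was 2.74-fold lower, at 3.04 and 7.80. Axin2, a feedback gene of the pathway named after its values were seen, stood at 1.84 in lateral prominence and 4.85 in the library titled central, a log2 ratio of -1.50 that falls just under the level limit. In the other direction Fzd8, a Wnt receptor, was at least 8.22-fold higher in lateral prominence, with levels of 8.80 there and 1 in the library titled central. Shisa2, which holds Wnt and FGF receptors back in the cell, was at least 10.7-fold higher, at 11.5 and 1, and Sfrp1, another secreted inhibitor, 4.17-fold higher, at 9.55 and 2.14. Of 33 such genes 8 reached the level of 5, of which 3 were counted as higher and 3 as lower, and the median log2 ratio of the 33 was -0.10, equal to that of all genes.

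**Figure D2:**
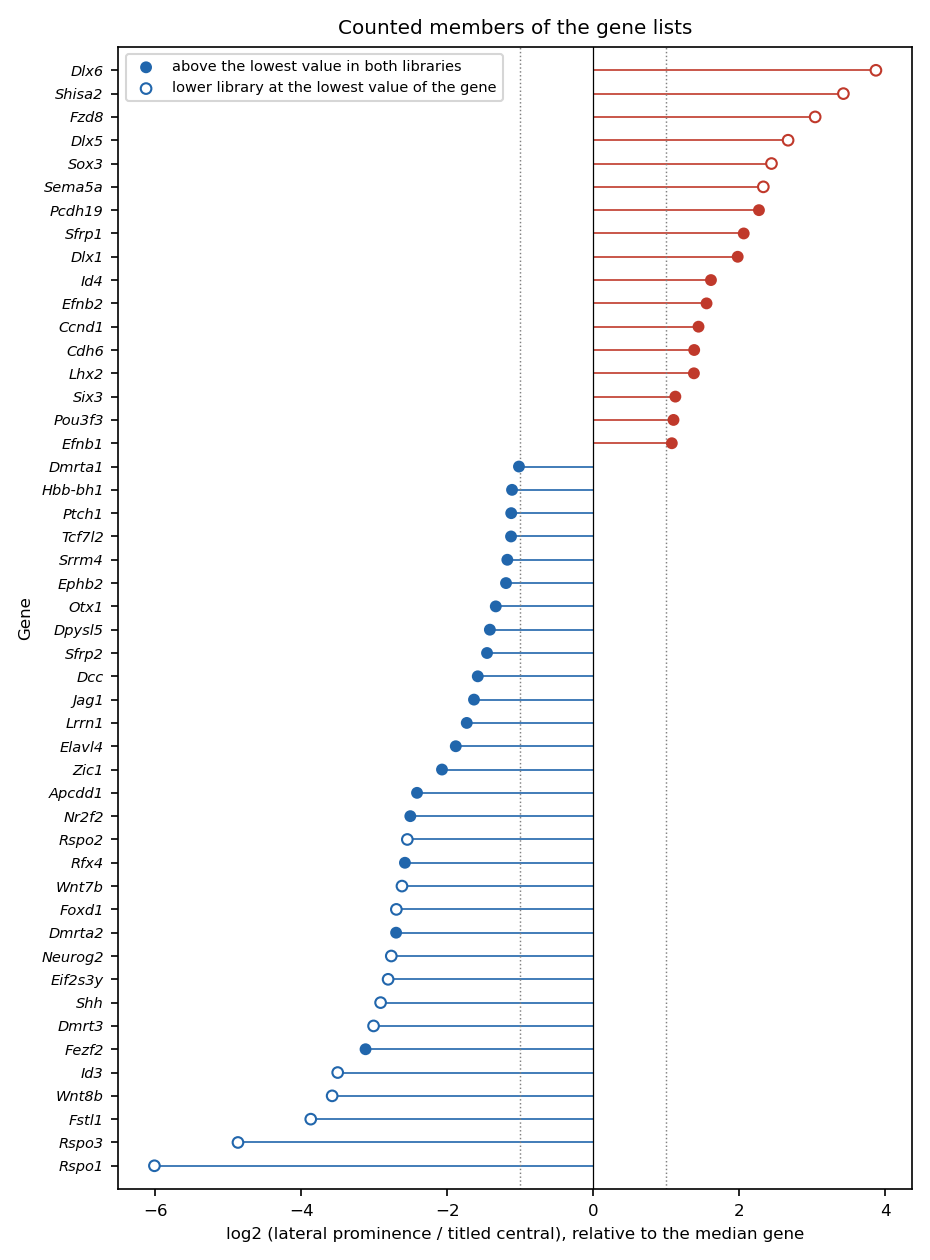
Log2 ratio of lateral prominence over the library titled central, relative to the median gene, for 48 counted members of the gene lists; open circles mark the 18 genes whose lower library is at the lowest value of the gene, and dotted lines are 2-fold. Rspo1 lies at the bottom with -6.01, followed by Rspo3 with -4.87, Rspo2 is at -2.55, and Dlx6 lies at the top with 3.87.

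Transcription factors of the dorsal telencephalon were lower in lateral prominence for 7 and higher for 2 of 25 measured members, of which 15 reached the level of 5, with a median log2 ratio of -0.80. Fezf2, a forebrain factor, had levels of 3.34 in lateral prominence and 27.1 in the library titled central, 8.69-fold lower in lateral prominence. Dmrt3 (1 in lateral prominence and 7.52 in the library titled central) and Dmrta2 (1.24 and 7.56), factors that pattern the dorsal wall next to the hem, were at least 8.05-fold and 6.50-fold lower. Neurog2 had a level of 1 in lateral prominence and 6.36 in the library titled central, at least 6.80-fold lower, and was at its floor in each of the other 15 libraries. The orphan nuclear receptor gene Nr2f2 was 5.68-fold lower, at 7.06 and 37.5, and had its highest value of the 16 libraries in the library titled central. Otx1, a forebrain homeobox factor, was 2.52-fold lower, at 12.3 and 29.0, and Dmrta1 2.02-fold lower, at 3.21 and 6.08. In the other direction Lhx2, 1 of the 2 higher members of this list, was 2.60-fold higher, at 58.5 and 21.03. Against the library titled dorsal control, 4 of the 25 measured were lower and 8 higher in lateral prominence. Of the 1178 genes that could be counted there, 465 were lower and 170 higher, which is not a like share.

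Several other genes of the dorsal wall differed by less than 2-fold. Emx2, a homeobox factor that patterns the dorsal telencephalon, had levels of 11.1 in lateral prominence and 14.4 in the library titled central, a log2 ratio of -0.48. It was at 1 in the library titled dorsal control. Pax6 had a log2 ratio of -0.70, and Gli3, a repressor of hedgehog targets in the dorsal forebrain, had 0.01, with levels of 6.85 and 6.37. Of 4 genes given as markers of the library titled central, Rspo3, Wnt8b and Neurog2 were counted and Emx2 was not. Eomes, a factor of young cortical neurons and their precursors, had levels of 1.15 in lateral prominence and 3.55 in the library titled central and fell under the level limit. Lmx1a, a factor of the hem itself, and Bmp4 were at level 1 in both.

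Of the 19 measured genes of the list for cortical hem and dorsal midline 6 reached the level of 5, and 6 were lower in lateral prominence and 0 higher, with a median log2 ratio of -1.25. They were Rspo1, Rspo2, Rspo3 and Wnt8b, together with Id3, an inhibitor of bHLH factors that BMP signals raise, and Zic1, a zinc-finger factor of the dorsal and frontal midline. Id3 had levels of 1 in lateral prominence and 10.6 in the library titled central, 11.3-fold lower, and lateral prominence alone held its lowest value. Zic1 had levels of 3.65 and 14.3, 4.204-fold lower, and 61.3 in the library titled dorsal control. Against that library, 4 of the 19 measured were lower and 0 higher. Of the 1178 genes that could be counted there, 465 were lower and 170 higher, which is not a like share. No member of the list was above 3.65 in lateral prominence, so none could be counted as higher in either comparison.

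Forebrain factors of the dorsal list (Lhx2) and of the ventral list were higher in lateral prominence. Lhx2, a factor of the cortical wall, was 2.60-fold higher, at 58.5 in lateral prominence and 21.03 in the library titled central, and Six3, a factor of the anterior forebrain and eye, 2.18-fold higher, at 15.3 and 6.56. Dlx6, a homeobox gene of ventral forebrain and of jaw mesenchyme, was at least 14.6-fold higher, at 15.7 in lateral prominence and 1 in the library titled central. Its neighbour Dlx5 was at least 6.36-fold higher, at 6.80 and 1, and Dlx1 3.94-fold higher, at 8.07 and 1.91. Dlx2 had levels of 4.63 and 1 and fell under the level limit.

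The ventral telencephalon list gave 4 higher members (Six3, Dlx1, Dlx5 and Dlx6) and 2 lower among 23, of which 8 reached the level of 5, with a median log2 ratio of -0.10. Foxd1, a factor of ventral forebrain and of mesenchyme, was at least 6.48-fold lower, with levels of 1 in lateral prominence and 6.06 in the library titled central. Against the library titled dorsal control, 1 of the 23 measured was higher and 7 lower. Of the 1178 genes that could be counted there, 170 were higher and 465 lower, which is not a like share. Gsx2, a lateral ganglionic eminence factor, had levels of 1.78 in lateral prominence and 1 in the library titled central and was not counted. The RNA called Dlx6as1, which overlaps Dlx6, had levels of 5.67 and 1. The sources used here do not state that reads were counted by strand, so reads of Dlx6 and Dlx6as1 cannot be told apart.

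**Figure D3:**
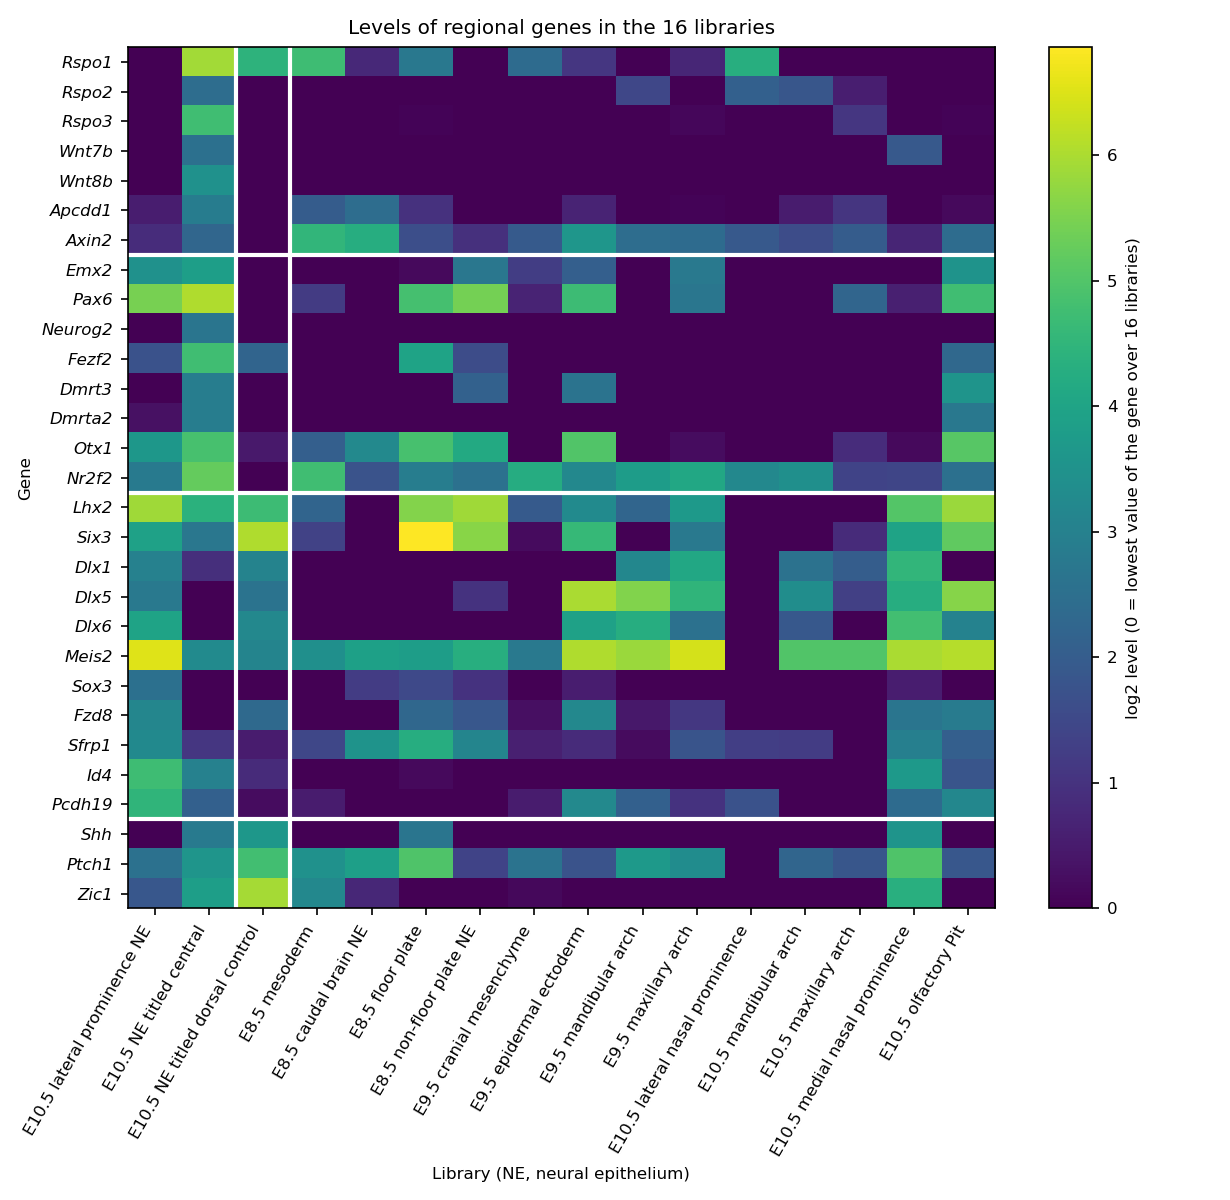
Log2 level (colour, with 0 for the lowest value in any library) of 29 genes (rows) in the 16 libraries (columns), with lateral prominence, the library titled central and the library titled dorsal control at the left and the others by stage. Wnt8b and Neurog2 are above the floor in the library titled central alone, whereas Meis2 is at 92.4 in lateral prominence, 9.78 in the library titled central and 8.54 in the library titled dorsal control.

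Meis2, a homeobox cofactor, had levels of 92.4 in lateral prominence and 9.78 in the library titled central, 8.83-fold higher in lateral prominence. The value in lateral prominence was its highest of the 16 libraries, ahead of 85.5 in the E9.5 maxillary arch. In the library titled dorsal control Meis2 was at 8.54. Sox3, a progenitor factor of the Sox2 group, was at least 5.43-fold higher, at 5.81 and 1, and Pou3f3, a neural POU factor, 2.14-fold higher, at 16.5 and 7.21. Rfx4, which is needed for the dorsal midline of the mouse brain, was 5.98-fold lower, at 1.44 and 8.06. Sox3, Pou3f3 and Rfx4 were the 3 counted of 28 neural progenitor genes, a list that Meis2 is not in. Of the 28, 16 reached the level of 5, and the median log2 ratio of the 28 was -0.0047. The other members lay under 2-fold or under the level limit, Sox2 among them with a log2 ratio of 0.71.

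The 250 bases upstream of the start are shown for 4 of the genes above, 3 lower and 1 higher, whose windows hold 1 of 2 short motifs of factors that act in the dorsal or ventral wall. They are RefSeq sequences of build GRCm38.p6, whereas the deposited values were made on mm9, and no promoter signal was measured here. Capitals mark CTTTGA, the core that Wnt-responsive TCF and LEF factors bind, or TAATTA, a core bound by homeodomain factors, each searched on both strands. The 250 bases hold CTTTGA in 13.8% of 32851 start sites and TAATTA in 4.84%. CTTTGA was in 7 of 86 windows of higher and 12 of 98 windows of lower protein-coding genes, and TAATTA in 1 and 3. Windows were listed for 139 of the 182 counted protein-coding genes, some with several starts. A match is a run of letters and not a measured binding site.
Wnt8b, lower, chr19:44493222-44493471, plus strand: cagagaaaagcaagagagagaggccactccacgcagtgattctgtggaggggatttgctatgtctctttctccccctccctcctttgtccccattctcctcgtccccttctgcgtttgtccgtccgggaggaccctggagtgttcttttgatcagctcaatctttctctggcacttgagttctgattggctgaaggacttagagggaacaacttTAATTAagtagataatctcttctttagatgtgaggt
Fezf2, lower, chr14:12345866-12346115, minus strand: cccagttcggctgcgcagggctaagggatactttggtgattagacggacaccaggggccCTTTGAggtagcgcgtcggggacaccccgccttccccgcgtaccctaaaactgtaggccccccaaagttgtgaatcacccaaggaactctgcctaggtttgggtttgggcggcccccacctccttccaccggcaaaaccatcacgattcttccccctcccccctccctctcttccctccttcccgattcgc
Nr2f2, lower, chr7:70366747-70366996, minus strand: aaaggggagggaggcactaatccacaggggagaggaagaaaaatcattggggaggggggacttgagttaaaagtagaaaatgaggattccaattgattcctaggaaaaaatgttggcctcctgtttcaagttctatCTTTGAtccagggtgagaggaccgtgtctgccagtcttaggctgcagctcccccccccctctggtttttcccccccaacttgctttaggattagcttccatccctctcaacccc
Meis2, higher, chr2:116064620-116064869, minus strand: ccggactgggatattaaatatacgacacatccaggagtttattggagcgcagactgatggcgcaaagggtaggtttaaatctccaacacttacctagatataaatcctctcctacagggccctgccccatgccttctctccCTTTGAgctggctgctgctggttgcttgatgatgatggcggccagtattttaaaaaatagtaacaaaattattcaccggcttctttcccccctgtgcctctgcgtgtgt

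Hedgehog genes were lower for 2 and higher for 0 of 17 members, of which 4 reached the level of 5, with a median log2 ratio of -0.10. Shh, the ligand made by the ventral midline, had levels of 1 in lateral prominence and 7.04 in the library titled central, at least 7.53-fold lower, and 12.4 in the library titled dorsal control. Ptch1, the receptor that hedgehog signals induce, was 2.18-fold lower, at 5.85 and 11.9. Gli1, the pathway effector, had levels of 1 and 3.29 and fell under the level limit. The BMP and TGF-beta list had Fstl1, a secreted binding protein (at least 14.6-fold lower, at 1 and 13.7), and Id3 lower and Id4, a bHLH inhibitor of neural progenitors (3.06-fold higher, at 26.7 and 8.16), higher among 37, of which 4 reached the level of 5. Of the other lists, the eye field gave 2 higher and 2 lower of 17 (6 at the level of 5), and the diencephalon and hypothalamus 0 higher and 3 lower of 28 (4 at the level of 5), namely Wnt8b, Fezf2 and Tcf7l2. Of 31 FGF genes 2 reached the level of 5 and 0 were counted. Of 15 retinoic acid genes 0 reached that level, so none could be counted.

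Of 35 proneural and Notch genes 7 reached the level of 5, of which 2 were lower and 0 higher, with a median log2 ratio of -0.15. Besides Neurog2, Jag1, a Notch ligand, was 3.10-fold lower, with levels of 2.75 in lateral prominence and 7.98 in the library titled central. Of 48 genes of early neurons 10 reached the level of 5, of which 3 were lower and 0 higher, beside 19.2% and 16.3% of all 749 genes at that level. The median log2 ratio of the 48 was -0.25. Elavl4, a neuronal RNA-binding protein, was 3.69-fold lower, at 6.77 and 23.3. Dpysl5, which guides growing axons, was 2.67-fold lower, at 11.2 and 27.8, and Srrm4, a neuronal splicing factor, 2.26-fold lower, at 2.46 and 5.20. Tubb3, a neuronal tubulin, had levels of 4.02 and 2.01 and was not counted.

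Guidance and adhesion genes were counted in both directions, as were all 749 genes at that level (35.5%), and nothing is read about the lists as wholes. Of 53 axon guidance genes 10 reached the level of 5, of which 5 were counted. Sema5a (5.03-fold, at 5.38 and 1), Efnb2 (2.93-fold, at 10.1 and 3.20) and Efnb1 (2.11-fold, at 11.5 and 5.09) were higher in lateral prominence, and the library titled central alone held the lowest value of Sema5a. The netrin receptor Dcc (2.99-fold, at 1.88 and 5.26) and the ephrin receptor Ephb2 (2.29-fold, at 9.16 and 19.6) were lower. Of 42 adhesion genes 7 reached the level of 5, of which 3 were counted. The protocadherin Pcdh19 (4.82-fold, at 22.3 and 4.32) and the cadherin Cdh6 (2.61-fold, at 8.22 and 2.95) were higher and Lrrn1, a leucine-rich repeat membrane protein (3.32-fold, at 13.5 and 41.9), lower. Ccnd1, a cyclin of the G1 phase, was the 1 counted of 40 cell cycle genes, of which 2 reached the level of 5. It was 2.72-fold higher, with levels of 6.996 and 2.41.

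**Figure D4:**
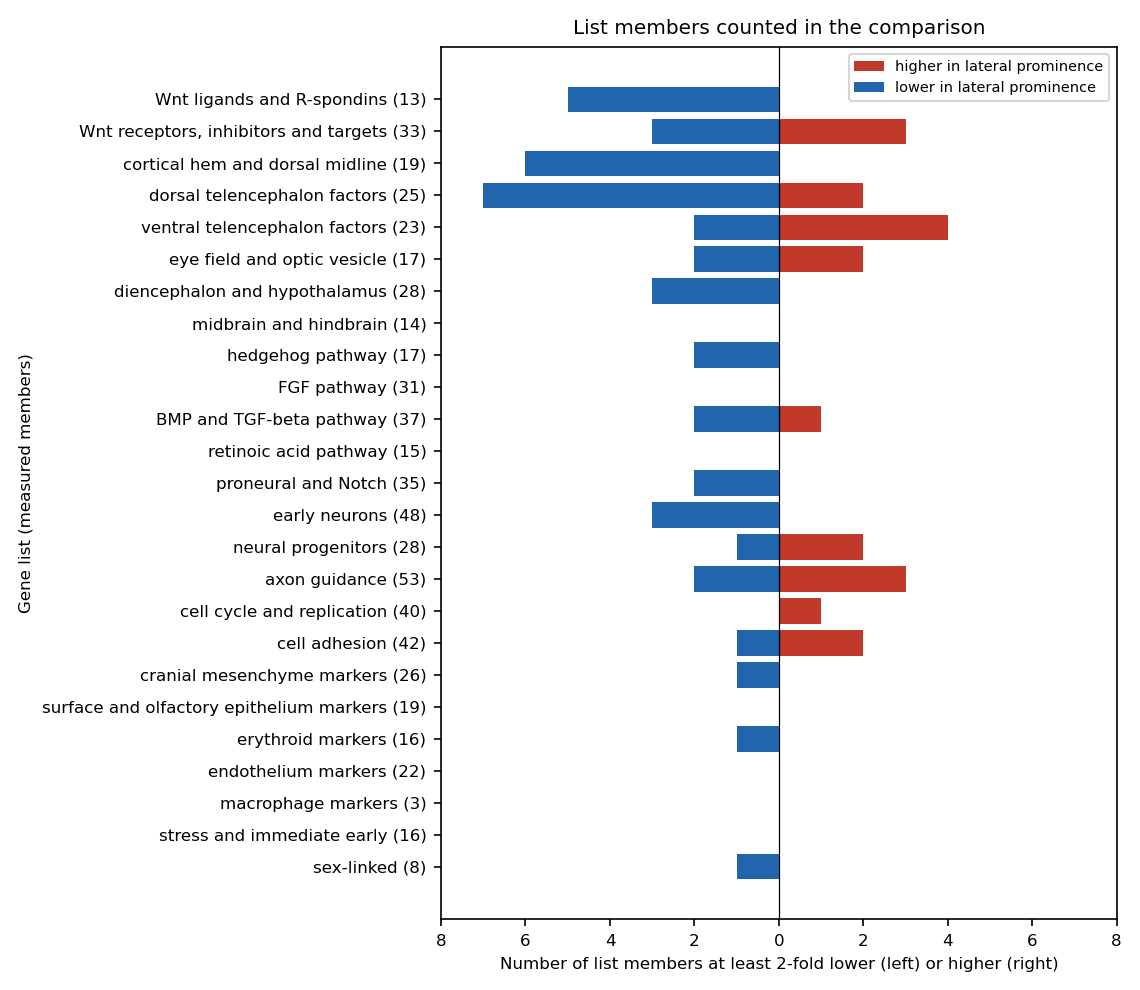
Number of members of each gene list at least 2-fold lower (left, blue) or higher (right, red) in lateral prominence than in the library titled central, with the number of measured members in brackets. The Wnt and R-spondin list has 5 lower and 0 higher of 13, and the dorsal telencephalon list 7 lower and 2 higher of 25. No member of the Wnt and R-spondin list reached the level of 5 in lateral prominence, so none could be counted as higher.

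Marker lists of other tissues held few genes that reached the level of 5. Foxd1 was the 1 of 26 mesenchyme markers to reach it and was lower, and Hbb-bh1, an embryonic globin, the 1 lower of 16 erythroid markers, 4 of them at that level (2.16-fold, at 3.97 in lateral prominence and 8.02 in the library titled central). Of the surface epithelium (19 genes), endothelium (22), macrophage (3) and stress genes (16), 0 reached the level of 5 in either library, so none could be counted. Eif2s3y, a gene of the Y chromosome, had levels of 1 in lateral prominence, 6.55 in the library titled central and 1 in the library titled dorsal control, and Xist, expressed from the inactive X chromosome, 50.6, 30.1 and 83.4. Xist was not counted, and the part of these genes in the other differences was not tested.

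The other named genes with the largest differences had varied roles. Ttc3, a ubiquitin ligase gene (at least 117-fold lower, at 1 and 110), and Tpr, a nuclear pore gene (at least 239-fold higher, at 256 and 1), had levels under 2 or over 20 and none between in the 16 libraries, and the lowest ratio of Tpr is 0.01, the lower bound of the deposited ratios. Brwd1, a bromodomain gene, was at least 35.6-fold lower, at 1 and 33.3. Cep112 (15.4-fold), Preb (13.8-fold) and Tbrg4 (10.4-fold) were lower, and lateral prominence alone held the lowest value of each. Igfbp5, an IGF-binding protein, was at least 10.8-fold lower, at 1 and 10.1, and Spon1, a secreted floor plate protein, at least 10.1-fold lower, at 1 and 9.44. Surf1 was 9.40-fold and the calcium channel gene Cacna1g 8.98-fold lower. On the other side Asnsd1 (16.5-fold, at 17.6 and 1) and Osgepl1 (7.57-fold, at 8.10 and 1), which are next to each other on chromosome 1 in the RefSeq annotation, were higher, as were Polr2f (10.8-fold), Fzr1 (8.34-fold), Ubald2 (7.13-fold) and Slc38a6 (6.91-fold). In the first 5 of these 6 genes the library titled central alone held the lowest value.

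The 2-fold limit fell within a continuous range of ratios. Just inside it stood Usp51 (2.03-fold), Frmd5 (2.07-fold) and Scube1 (2.08-fold) among the higher genes, and Usp49 (1.995-fold), Filip1 (1.98-fold) and Lamtor2 (1.98-fold) just outside. Among the lower genes Bbs7 (2.01-fold), Plagl1 (2.01-fold) and Cdc34 (2.02-fold) were just inside, and Arhgap26 (1.998-fold), Fhl1 (1.99-fold) and Rnf157 (1.98-fold) just outside.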

How the data were processed

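RNA was purified with the ZR RNA MicroPrep kit and sequenced single-end at 50 bases on an Illumina HiSeq machine, with a common lower limit of depth as the one depth stated, per the labels' protocols. Bowtie, TopHat, TopHat2, Cufflinks and mm9 are named in the submitters' processing notes, without versions. The deposited values are ratios: in the files, each gene has a median of 1 across the 16 libraries, to within 1.5e-07. Of 15876 genes, 8788 share a lowest value between libraries, 7082 do not, and 6 reach a bound of 0.01. Read counts per gene are not used here, so the depth behind a value is unknown and no interval is given.

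Levels, the log2 shift between the libraries, the 2-fold rule and the minimum level of 5 were computed with Python 3.11.15, NumPy 2.4.6 and pandas 2.3.3, and figures with Matplotlib 3.10.9. The procedure was tested on simulated data. With 1 library a group no test was run. The members and the 26 gene lists were chosen with earlier results of these data known. Named genes are 4 markers, counted list members, the 15 largest differences each way and the 3 genes on each side of the 2-fold limit; others are given for context, and a few named by this rule are not reported here. Genes were classed by Ensembl ID, which matched 14786.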

Additional observations from a re-analysis of the deposited data

How the results depend on the processing

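Counts are given as higher and lower in lateral prominence, 122 and 144 as reported. They were 327 and 338 with a minimum level of 3, 40 and 39 with 10, and 531 and 716 with no minimum. A limit of 1.5-fold gave 206 and 212, and of 4-fold 56 and 71. The library titled dorsal control in place of the library titled central gave 170 and 465 of 1178 genes that could be counted, against 749 as reported. These shared 72 higher and 42 lower genes with the reported sets. Protein-coding genes alone, chosen after seeing the data, gave 79 and 103. Without removing the shift the counts were 137 and 125, so higher genes were 52.3% of those counted, against 45.9% as reported. A shift from the 315 genes at level 5 or more in both gave 132 and 132 (50%). Genes above their lowest value in both gave 91 and 102, and leaving out repeated symbols, pseudogenes and all-or-none genes 120 and 140. Of 73 named genes, Dmrta1 alone fell under 2-fold under either shift, with log2 ratios of -0.92 and -0.94, and none reversed. No paired analysis was possible because each group has 1 library.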

Other observations

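Protein-coding genes, 573 of them at the level of 5, made up 79 of the 122 higher and 103 of the 144 lower genes. Of 221 miRNA loci 15 reached that level, of which 7 were higher and 5 lower in lateral prominence. Over all 749 genes the shares were 16.3% and 19.2%. Reads of 50 bases are longer than the 20 to 26 bases of the mature miRNAs, so a value at such a locus measures longer RNA over it and not the mature miRNA. Mir186 had levels of 14.9 in lateral prominence and 2.25 in the library titled central, and Mir379 had 5.10 and 1. Mir665 had levels of 1 and 8.16, and Mir181b-2 3.43 and 12.2. Mir379 and Mir665, both on chromosome 12, were thus counted in opposite directions. RefSeq (GRCm38.p6) gave mature sequences for 7 of the 12 loci, and the 11 mature sequences had 11 different seeds. Of each of these 4 loci 1 mature sequence is shown, with its seed, bases 2 to 8, in capitals.
mmu-miR-186-5p, higher, chr3:157544285-157544306, plus strand: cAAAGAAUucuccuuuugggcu
mmu-miR-379-5p, higher, chr12:109709065-109709085, plus strand: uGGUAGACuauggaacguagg
mmu-miR-665-3p, lower, chr12:109586368-109586387, plus strand: aCCAGGAGgcugaggucccu
mmu-miR-181b-5p, lower, chr2:38853845-38853868, plus strand: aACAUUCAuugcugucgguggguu

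Other small RNA genes were higher for 13 and lower for 15. Snord111, a small nucleolar RNA, had levels of 14.2 in lateral prominence and 1 in the library titled central. Among the other large differences outside the protein-coding genes, DQ267101 had 9.60 and 1, mmu-mir-2141 9.09 and 1, Gm23388 12.2 and 1, and AC125204.1 1 and 14.6. Annotation by Ensembl ID left 16 higher and 15 lower genes unmatched.

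Over the 16 libraries, Neurog2, Gm16143 and Gm22506 followed Wnt8b with a Pearson r of 1 on the log2 scale. Each was above its lowest value in 1 library, the library titled central, so this r rests on that library. Rspo3 had an r of 0.975 with Wnt8b, and Erbb4, a neuregulin receptor, 0.904. Wnt8b itself was above its floor in the library titled central alone, so these values of r rest on that library too. Emx2 went most closely with Pax6 (0.812), Dmrt3 (0.710) and Dmrta2 (0.655). These values describe 16 libraries that differ in tissue and stage.

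In the RefSeq order of protein-coding genes, 3 pairs of direct neighbours were both counted, each in 1 direction. Dlx5 and Dlx6 on chromosome 6 and Asnsd1 and Osgepl1 on chromosome 1 were higher, and Dmrta2 and Elavl4 on chromosome 4 lower.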
